A study of Homo sapiens with 15 samples.

Results

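SGPP2, EMP1 and P3H2 are 3 genes whose RNA was raised by the progestins MPA and PROG well above its level with DHT or DEX in ZR-75-1, an established line of human breast cancer cells that carries the estrogen receptor. They were chosen by gene symbol for that pattern, and each has 1 probe set among the 14841 probe sets that carry 1 gene symbol (14361 genes) in a table of 34878. Cells received 10 nM of MPA (medroxyprogesterone acetate), PROG (progesterone), DHT (dihydrotestosterone, an androgen) or DEX (dexamethasone, a synthetic glucocorticoid), and the vehicle cells received 0.1% ethanol and are also called untreated. All groups were kept in RPMI-1640 medium with 10% serum, which carries hormones of its own, and RNA was taken after 6 h. Each of the 5 groups has 3 arrays. The full compound names are the usual reading of these abbreviations, and no label states whether the treated cells also received ethanol. ZR-75-1 is a single established line, so the values describe that line.

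Progesterone acts through the progesterone receptor, a transcription factor that binds DNA once it holds a ligand. MPA is a synthetic progestin derived from progesterone by adding a methyl group and an acetate ester, and is known to bind other steroid receptors as well. SGPP2 encodes an endoplasmic reticulum phosphatase that turns the signalling lipid sphingosine-1-phosphate into sphingosine. EMP1 encodes a small epithelial membrane protein of the PMP22 family, whose members cross the membrane several times and sit at cell contacts. P3H2 encodes a prolyl 3-hydroxylase of the endoplasmic reticulum that modifies prolines in collagen chains, the basement membrane type among them.

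The values are log2 expression levels as the authors deposited them, so a difference of 1 is a doubling. Array medians lay between 3.69 and 3.73. Over all probe sets, arrays of the same group correlated with r = 0.9971 to 0.9978 and arrays of different groups with r = 0.9953 to 0.9977. All 9 measured luminal markers of 10 listed were above the array medians, from KRT8 at a mean of 5.87 to KRT18 at 12.1. The basal keratins KRT5 and KRT14 were below them at 2.97 and 2.96, as were the endothelial VWF and the fibroblast gene DCN at 3.16 and 3.10. OXTR (5.15), CD68 (7.71) and LUM (4.06) of those lists lay above the medians. The summed level, on the log2 scale, of the 2 measured blood or endothelial markers, CD68 and VWF, lay at 7.77 to 7.98 with MPA, 7.66 to 7.76 with PROG, 7.86 to 7.89 with DHT and 7.66 to 7.83 with DEX, against 7.63 to 7.70 with vehicle. For the 3 measured basal markers it lay at 5.57 to 5.64 with MPA, 5.58 to 5.68 with PROG, 5.66 to 5.68 with DHT and 5.61 to 5.73 with DEX, against 5.73 to 5.90 with vehicle. For the 2 measured fibroblast markers the sums ran over 4.49 to 4.68 with MPA, 4.63 to 4.67 with PROG, 4.59 to 4.78 with DHT and 4.65 to 4.79 with DEX, against 4.66 to 4.70 with vehicle. The part of these marker levels in the results below was not tested. Whether the arrays of a group stand for separate cultures is stated by no label, so every p-value reflects only the variation among these arrays, and that variation may be technical.

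SGPP2 was highest with MPA, next with PROG, and close to vehicle with DHT and DEX. Its levels were 7.10, 6.92 and 7.17 with MPA, 6.34, 6.56 and 6.32 with PROG, 5.50, 5.58 and 5.25 with DHT and 5.29, 5.36 and 4.97 with DEX, against 5.10, 5.06 and 5.24 with vehicle. All 3 MPA arrays lay above all 3 PROG arrays, and every progestin array lay above every array of the other 3 groups. The DHT arrays lay just above the vehicle arrays, with a gap of 0.01, and the DEX arrays overlapped them. The mean of 7.06 ± 0.129 with MPA was 3.81-fold that of 5.13 ± 0.0945 with vehicle, and the mean of 6.41 ± 0.133 with PROG was 2.42-fold that of vehicle (SD, n = 3 each).

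EMP1 reached the same height with both progestins and stood at an intermediate level with DEX. Its levels were 7.34, 7.41 and 7.50 with MPA, 7.31, 7.28 and 7.49 with PROG, 5.73, 5.84 and 6.04 with DHT and 6.37, 6.49 and 6.55 with DEX, against 5.47, 5.66 and 5.40 with vehicle. The MPA and PROG arrays overlapped. The DEX arrays lay between the progestin arrays and the DHT arrays with no overlap on either side, and the DHT arrays lay above the vehicle arrays by a gap of 0.07. Means were 7.42 ± 0.0802 with MPA and 7.36 ± 0.114 with PROG, against 5.51 ± 0.135 with vehicle (SD, n = 3 each), so that MPA gave 3.75-fold and PROG 3.61-fold the vehicle level.

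P3H2 was the dimmest of the genes, and only its progestin arrays rose above the middle of the array. Its levels were 4.73, 4.30 and 4.76 with MPA, 4.46, 4.73 and 4.50 with PROG, 3.58, 3.12 and 3.46 with DHT and 3.56, 3.32 and 3.32 with DEX, against 3.11, 3.08 and 3.33 with vehicle. The MPA and PROG arrays overlapped, and the DHT, DEX and vehicle arrays overlapped among themselves. All 9 arrays of those 3 groups lay under their own array's median. The mean with vehicle stood at the 22.5th percentile of all probe sets, while the MPA mean stood at the 63.7th. With low levels set to 3.70, the middle of the array medians, the P3H2 mean with MPA was 1.86-fold and that with PROG 1.82-fold the vehicle level. These are point values without an interval, and 3.70 is not a measured limit of detection. The measured differences were 1.42 ± 0.14 for MPA and 1.39 ± 0.14 for PROG (log2, ± standard error of the fit, n = 3 arrays per group).

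**Figure D1:**
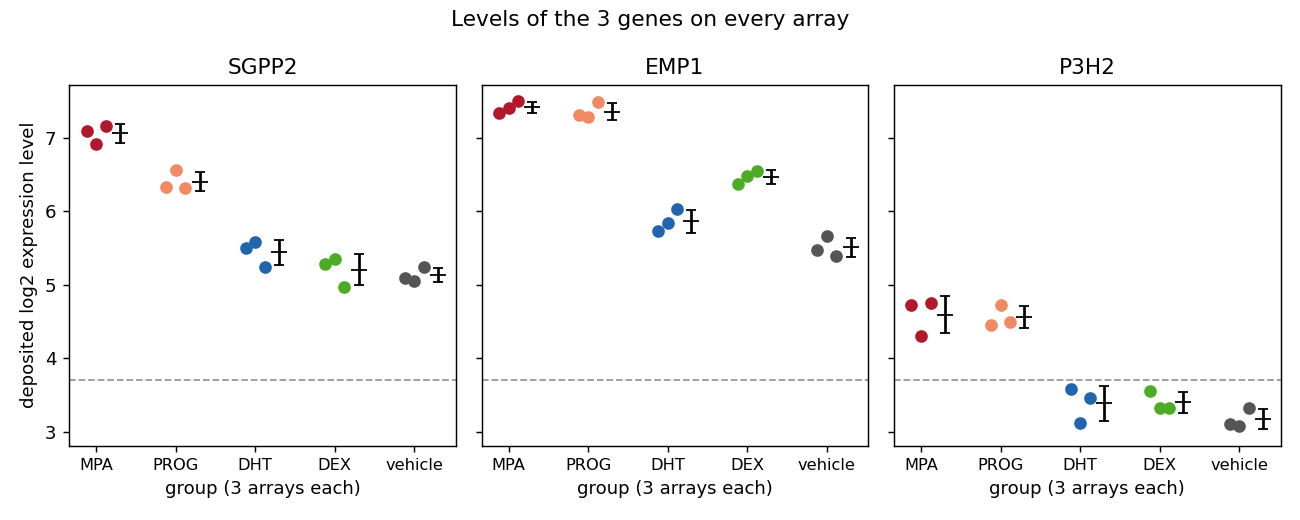
Deposited log2 expression level (y axis) of SGPP2, EMP1 and P3H2 on each of the 15 arrays, by group. Points are arrays, the bars beside them give the mean ± SD of 3 arrays, and the dashed line is 3.70, the middle of the array medians. The MPA and PROG arrays lie above all others in each panel, the MPA arrays of SGPP2 lie above its PROG arrays, and the DEX arrays of EMP1 lie at 6.37 to 6.55.

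Differences of both progestins from vehicle, DHT and DEX chose these genes, so they are given as a description with no test. Against vehicle, SGPP2 ranked 6th and EMP1 7th of all named probe sets by the log2 difference with MPA, and P3H2 ranked 26th. With PROG the ranks were 15 for SGPP2, 3 for EMP1 and 8 for P3H2. In all 3 genes the arrays of each progestin did not overlap those of vehicle, which is no finding, as such differences chose the genes. The share of all probe sets whose arrays do not overlap was not counted. By another measure, an adjusted p under 0.05 in either direction, 5.93% of named probe sets passed with MPA and 2.82% with PROG. Against DHT the difference with MPA was 1.62 for SGPP2, 1.55 for EMP1 and 1.21 for P3H2, beside 3.51% of probe sets called. Against DEX it was 1.86, 0.95 and 1.20 in the same order of genes, beside 4.06% called. With PROG the differences were 0.96, 1.49 and 1.18 against DHT (1.71% called) and 1.20, 0.89 and 1.16 against DEX (1.42% called). By the smallest of the 4 differences of a progestin from DHT or DEX, P3H2 ranked 3rd, SGPP2 6th and EMP1 9th of the 14841 probe sets. With low levels of P3H2 set to 3.70 its smallest difference was 0.86, below those of SGPP2 (0.96) and EMP1 (0.89), so its place ahead of them is not settled. ZBTB7C, a zinc finger gene, ranked 1st with a smallest difference of 1.73.

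Of the named probe sets, 27 had log2 differences from vehicle of at least 1 with both progestins. In 12 of these the differences with DHT and with DEX were both under 0.5. SGPP2 and P3H2 belong to those 12, while EMP1 does not, because its DEX difference was 0.96. The place of P3H2 rests on levels under the array medians: with these set to 3.70 its differences were 0.90 with MPA and 0.86 with PROG, under 1.

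**Figure D2:**
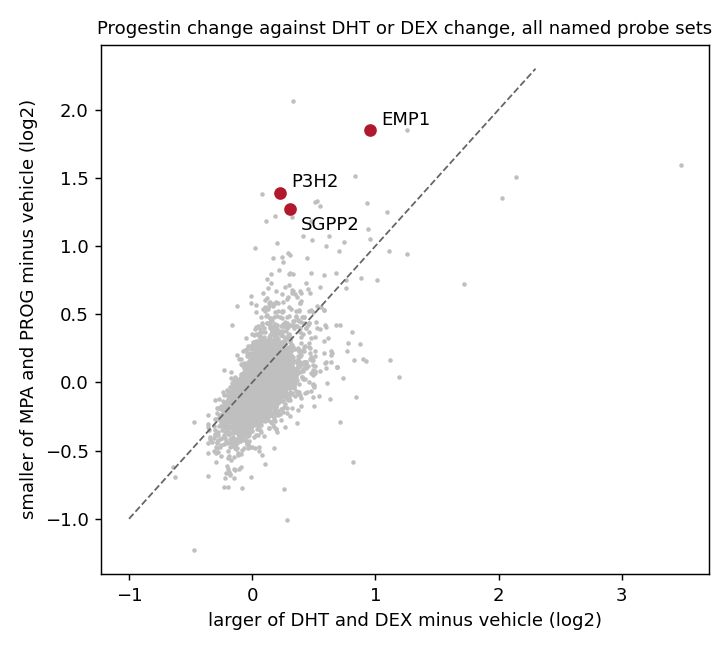
Each grey point is 1 of 14841 named probe sets, with the larger of its DHT and DEX log2 differences from vehicle on the x axis and the smaller of its MPA and PROG differences on the y axis. The dashed line marks equal values, and all 4 differences share the vehicle arrays. SGPP2, EMP1 and P3H2 lie above the line, with EMP1 farther right at 0.96.

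The contrasts that the choice of genes did not use were MPA against PROG, DHT against vehicle, DEX against vehicle and DHT against DEX. They share arrays with the contrasts that did, and the choice favoured low DHT or DEX levels. The word called stands for an adjusted p under 0.05 from limma, with the adjustment over all named probe sets. At the matched dose of 10 nM and time of 6 h, SGPP2 was higher with MPA than with PROG by 0.66 ± 0.11 on the log2 scale (95% interval 0.42 to 0.89, adjusted p = 0.0205). That is 1.58-fold, the 8th largest such difference of all named probe sets. Only 0.236% of named probe sets were called higher with MPA than with PROG, beside 0.29% in either direction, and SGPP2 was 1 of 3 members called. The call was lost when MPA 1, MPA 3, PROG 1 or PROG 3 was left out (adjusted p 0.0769 to 0.113) and when only the arrays of MPA and PROG entered the fit (adjusted p = 0.0923), although the difference stayed at 0.60 or more.

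For EMP1 the difference of MPA from PROG was 0.06 ± 0.089 with a 95% interval of -0.13 to 0.25 (adjusted p = 0.923). For P3H2 it was 0.03 ± 0.14 with an interval of -0.26 to 0.33 (adjusted p = 0.976). Neither was called, and the intervals leave room for differences of up to 1.19-fold in EMP1 and 1.25-fold in P3H2 toward MPA. On the log2 scale the PROG change from vehicle was 66.0% of the MPA change for SGPP2 and 97.0% for EMP1.

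DEX raised EMP1 by 0.96 ± 0.089 over vehicle (95% interval 0.77 to 1.15, adjusted p = 5.80e-05), which is 1.95-fold and the 7th largest rise with DEX. In that comparison 0.957% of named probe sets were called higher, and EMP1 was the 1 member called. The call held without each array in turn. SGPP2 differed from vehicle by 0.07 ± 0.11 with DEX (interval -0.16 to 0.31, adjusted p = 0.875), and P3H2 by 0.23 ± 0.14 (interval -0.07 to 0.52, adjusted p = 0.627). Neither was called, an outcome that the choice of genes for low DHT or DEX levels favoured. On the log2 scale the DEX change was 50.3% of the MPA change for EMP1 and 3.80% for SGPP2.

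With DHT no member was called against vehicle, where 0.889% of named probe sets were. The choice of genes favoured low DHT or DEX levels, so it also favoured this lack of calls. The differences were 0.36 ± 0.089 for EMP1 (95% interval 0.17 to 0.55, adjusted p = 0.0811), 0.31 ± 0.11 for SGPP2 (interval 0.07 to 0.55, adjusted p = 0.320) and 0.21 ± 0.14 for P3H2 (interval -0.08 to 0.51, adjusted p = 0.669). At an unadjusted p under 0.05, EMP1 and SGPP2 would pass, as would 1469 of the 14841 named probe sets, and EMP1 was called where the prior spread followed the mean level (adjusted p = 0.0492). EMP1 was lower with DHT than with DEX by a log2 difference of -0.60 ± 0.089 (95% interval -0.79 to -0.41, adjusted p = 0.00376), in a comparison where 0.398% of named probe sets were called lower and 0.654% in either direction. This call was lost when only the DHT and DEX arrays entered the fit (adjusted p = 0.0591). SGPP2 (0.24 ± 0.11, adjusted p = 0.524) and P3H2 (-0.01 ± 0.14, adjusted p = 0.992) were not called there.

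The order of the levels had different breaks in each gene. In SGPP2 it ran MPA, PROG, DHT, DEX and vehicle, and neither DHT and DEX nor DEX and vehicle differed by a call. In EMP1 it ran MPA, PROG, DEX, DHT and vehicle, with no call between MPA and PROG or between DHT and vehicle. In P3H2 it ran MPA, PROG, DEX, DHT and vehicle, with no call between MPA and PROG, between DHT and DEX, or between either of these and vehicle. The DHT, DEX and vehicle levels of P3H2 lay under the array medians, which limits what the lack of a call can show.

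**Figure D3:**
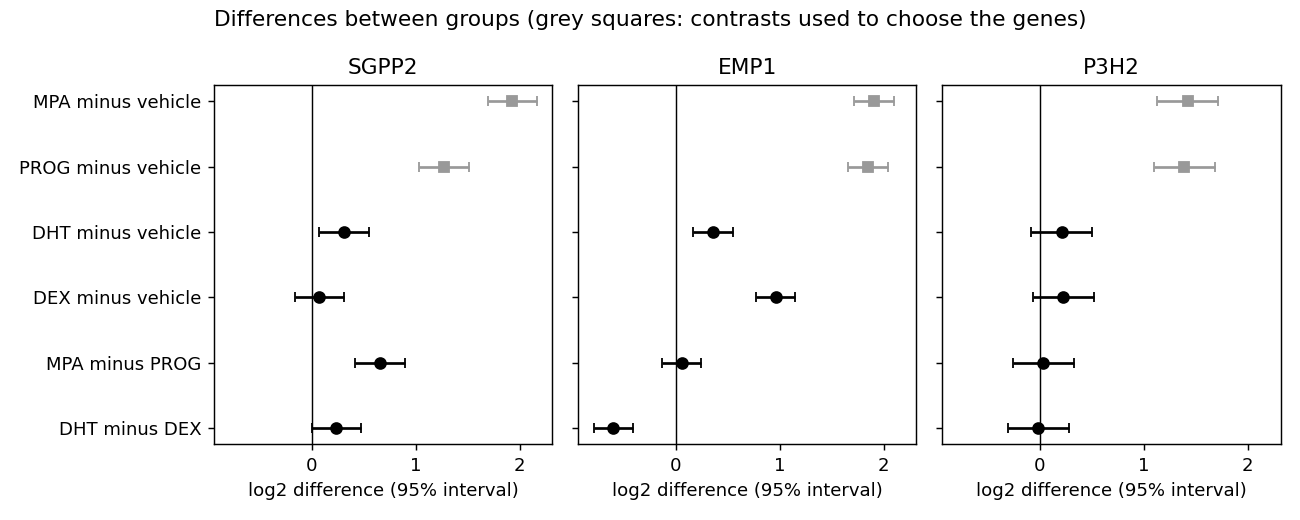
Log2 differences between groups (x axis, first group minus second) for SGPP2, EMP1 and P3H2, with 95% intervals from the limma fit over 15 arrays. Grey squares are differences that chose the genes, and black circles are the other contrasts. The MPA minus PROG interval lies above 0 for SGPP2 (0.42 to 0.89) and spans 0 for EMP1 and P3H2, and the DEX minus vehicle interval of EMP1 lies at 0.77 to 1.15.

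The DNA just before the annotated starts is shown for the 3 genes, which were chosen for a rise with both progestins. Whether this DNA has a part in that rise was not tested. The lines give the 250 bases before a RefSeq start in GRCh38.p14, written 5′ to 3′ on the gene's own strand. SGPP2 and P3H2 have 2 annotated starts each, of which the one farther upstream is printed, and EMP1 has 1. Capitals mark letters that match a searched motif.
SGPP2, chr2:222423738-222423987, plus strand: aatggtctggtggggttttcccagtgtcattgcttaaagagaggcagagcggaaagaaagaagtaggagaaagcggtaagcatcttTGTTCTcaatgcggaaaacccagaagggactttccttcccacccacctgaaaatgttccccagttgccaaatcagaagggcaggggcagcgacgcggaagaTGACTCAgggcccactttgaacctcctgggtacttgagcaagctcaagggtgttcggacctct
EMP1, chr12:13196476-13196725, plus strand: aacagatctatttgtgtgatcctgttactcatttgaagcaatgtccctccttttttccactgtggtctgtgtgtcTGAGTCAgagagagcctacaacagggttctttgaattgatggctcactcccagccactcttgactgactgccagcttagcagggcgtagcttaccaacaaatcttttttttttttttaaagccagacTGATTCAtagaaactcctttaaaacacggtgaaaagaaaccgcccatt
P3H2, chr3:190122279-190122528, minus strand: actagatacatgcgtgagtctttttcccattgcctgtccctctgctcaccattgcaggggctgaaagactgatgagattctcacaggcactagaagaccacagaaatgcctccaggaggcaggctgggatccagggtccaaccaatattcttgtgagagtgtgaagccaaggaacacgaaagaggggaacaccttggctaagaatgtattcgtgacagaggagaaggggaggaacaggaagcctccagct
Motifs were searched on both strands in these windows and in the 250 bases before each of 35116 RefSeq starts. The steroid receptor core motif AGAACA, which on the other strand reads TGTTCT, occurred before 12.4% of all starts, and it occurred in SGPP2 at bases -164 to -159, where -1 is the base just before the start. The fuller palindrome GNACANNNTGTNC, which can overlap that core in part, occurred before 0.33% of all starts and in none of the 5 windows of these genes. The AP-1 type motif TGANTCA occurred before 6.57% of all starts, in SGPP2 at -63 to -57 and in EMP1 at -175 to -169 and at -48 to -42. The TATA box core TATAAA occurred before 10.7% of all starts and in none of the 5 windows. The P3H2 window printed held no match to any of the 4 motifs. The inner start windows, which held none either, were richer in G and C, at 76.0% against 52.0% for SGPP2 and 64.0% against 51.2% for P3H2.

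The sphingolipid list holds genes that make, phosphorylate, move and break down ceramide and sphingosine, and also receptors of sphingosine-1-phosphate. Apart from SGPP2, 31 of 49 had a named probe set. Some of these were dim, such as the receptor genes S1PR1 and S1PR4, with means of 2.75 and 3.13 with vehicle, under the array medians. With MPA 1 of the 31 rose and 0 fell, beside 4.11% of named probe sets called higher, and with PROG it was 1 and 0, beside 2.43%, while 1.82% and 0.391% were called lower. The gene in both cases was SGMS1, a sphingomyelin synthase that uses ceramide. SGMS1 levels were 8.66, 8.54 and 8.67 with MPA, 8.52, 8.58 and 8.51 with PROG, 8.19, 8.24 and 8.27 with DHT and 8.23, 8.24 and 8.22 with DEX, against 8.06, 8.12 and 8.24 with vehicle. Its difference from vehicle was 0.48 ± 0.052 with MPA (adjusted p = 2.38e-05) and 0.40 ± 0.052 with PROG (adjusted p = 2.92e-04), while DHT (0.09, adjusted p = 0.605) and DEX (0.09, adjusted p = 0.603) gave no call. With DHT and with DEX limma called 0 of the 31. Over all named probe sets 0.889% and 1.11% were called in either direction (0.115% and 0.148% lower). At an unadjusted p under 0.05, 0 of the 31 were higher and 1 lower with DHT, beside 836 and 633 of the 14841 named probe sets. With DEX 2 were higher and 3 lower, beside 1037 and 509.

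SGPP1, the other phosphatase of sphingosine-1-phosphate, had means of 8.32 with MPA, 8.27 with PROG, 8.46 with DHT and 8.44 with DEX, against 8.32 with vehicle, and was not called with any compound (adjusted p 0.593 to 0.979). SPHK1, the kinase that makes sphingosine-1-phosphate, differed from vehicle by -0.01 with MPA and 0.06 with PROG, and SGPL1, the lyase that degrades it, by -0.09 and -0.04, all without a call. The median difference over the 31 genes was 0.03 with MPA and 0.03 with PROG, where the median over all genes was -0.0033 with MPA and 0 with PROG.

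Among PMP22 and claudin-like tetraspan genes, small membrane proteins of cell contacts, 11 of 14 apart from EMP1 had a named probe set. With MPA 3 of the 11 rose, with PROG 3, with DHT 1 and with DEX 2, beside 4.11%, 2.43%, 0.775% and 0.957% of all named probe sets called higher. EMP2, a paralog of EMP1, was bright in every group, and its levels were 11.91, 11.80 and 11.92 with MPA, 11.75, 11.79 and 11.76 with PROG, 11.61, 11.64 and 11.72 with DHT and 11.74, 11.75 and 11.72 with DEX, against 11.51, 11.53 and 11.52 with vehicle. Every treated array lay above every vehicle array, and the share of all probe sets that separate so was not counted. The difference was 0.36 ± 0.043 with MPA (adjusted p = 7.78e-05) and 0.25 ± 0.043 with PROG (adjusted p = 0.00406). With DEX it was 0.22 ± 0.043 (adjusted p = 0.0250), a call that did not hold when any 1 of the 6 DEX and vehicle arrays was dropped (adjusted p 0.0701 to 0.106), and with DHT it was 0.14 with no call (adjusted p = 0.230).

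CLDN8 encodes a claudin of tight junctions and rose with all 4 compounds, by 2.02 ± 0.085 with MPA, 1.35 ± 0.085 with PROG, 2.03 ± 0.085 with DHT and 0.78 ± 0.085 with DEX (adjusted p 2.15e-09 to 2.12e-04). Its difference from vehicle with DHT was close to that with MPA, while that of EMP1 was 0.36 with DHT and 1.91 with MPA. CLDN7 rose by 0.18 ± 0.037 with MPA (adjusted p = 0.00881) and by 0.16 ± 0.037 with PROG (adjusted p = 0.0358), and the PROG call did not hold when any 1 of the 6 PROG and vehicle arrays was dropped (adjusted p 0.0556 to 0.140). EMP3 lay under the array medians, with means of 3.49 with MPA and 3.37 with PROG against 3.51 with vehicle. The list's median difference was 0.0033 with MPA and 0.07 with PROG, beside -0.0033 and 0 over all genes.

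The collagen modification list holds the prolyl and lysyl hydroxylases, their partners and the collagen IV chains, and only 6 of 23 genes apart from P3H2 had a named probe set. These were P3H1, P3H3, P3H4, CRTAP, PPIB and COLGALT1, so no lysyl hydroxylase and no collagen IV chain was read. Against vehicle limma called 0 of the 6 with any compound. Over all named probe sets 5.93% were called with MPA, 2.82% with PROG, 0.889% with DHT and 1.11% with DEX. At an unadjusted p under 0.05, 0 of the 6 were higher and 1 lower with MPA, and 2 higher and 0 lower with DEX. With PROG and with DHT there were 0 and 0. Of the 14841 named probe sets, 1374 passed higher and 1215 lower with MPA. With PROG 1077 and 650 passed, with DHT 836 and 633, and with DEX 1037 and 509. P3H1, a prolyl 3-hydroxylase of fibrillar collagen, differed from vehicle by 0.01 ± 0.062 with MPA and 0.13 ± 0.062 with PROG. P3H3 differed by 0.06 ± 0.072 and 0.08 ± 0.072. CRTAP, the partner protein of P3H1, differed by -0.09 ± 0.036 and -0.03 ± 0.036. The median of the 6 was -0.01 with MPA and 0.06 with PROG. Between MPA and DEX, 2 of the 6 were called, both lower with MPA, beside 1.57% of all named probe sets called lower there. CRTAP had a mean of 9.69 with MPA and 9.87 with DEX (difference -0.18 ± 0.036, adjusted p = 0.0108), a call lost without DEX 2 (adjusted p = 0.0545). COLGALT1, a collagen galactosyltransferase, had a mean of 8.81 with MPA and 8.99 with DEX (difference -0.18 ± 0.043, adjusted p = 0.0282), and its call was lost whichever of the 6 arrays was left out (adjusted p 0.0549 to 0.110).

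**Figure D4:**
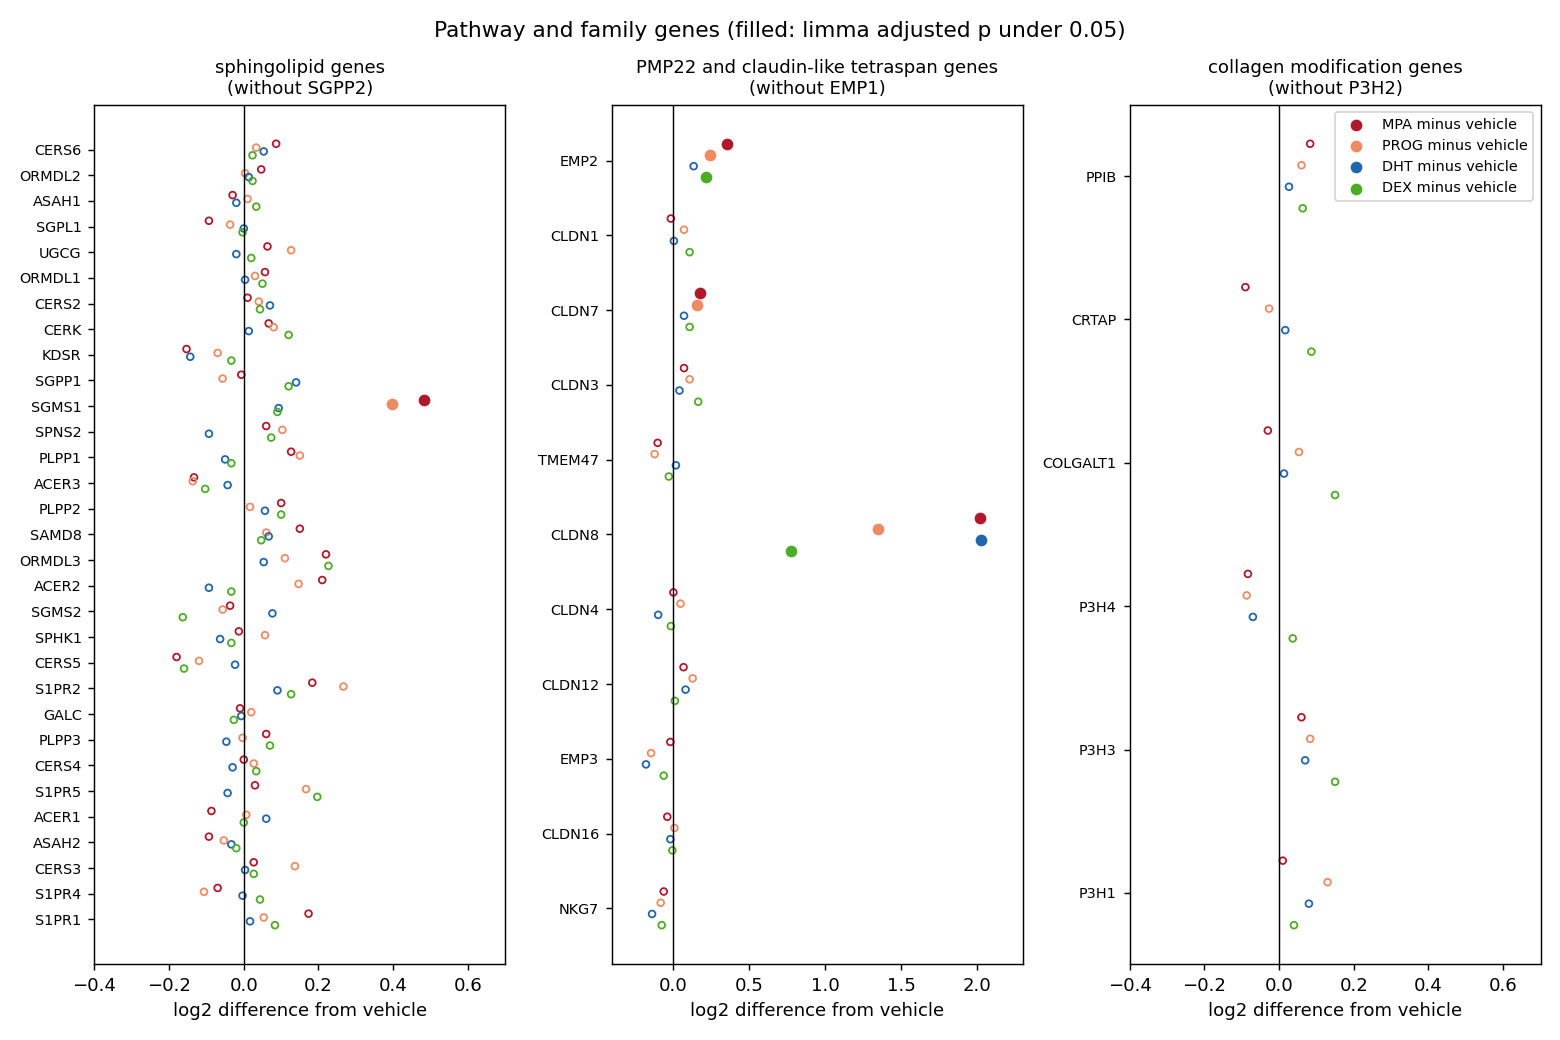
Log2 differences from vehicle (x axis) of the measured sphingolipid, tetraspan and collagen modification genes without SGPP2, EMP1 and P3H2, 1 row per gene and 1 point per compound. Filled points passed a limma adjusted p of 0.05. SGMS1 is filled for MPA (0.48) and PROG (0.40), EMP2 for MPA, PROG and DEX, CLDN7 for MPA and PROG and CLDN8 for all 4. None of the 6 measured collagen modification genes is filled.

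For each member the 2 nearest protein-coding genes with a named probe set on either side along the chromosome were read, 12 in all. Between the member and PAX3, MOGAT1, ATF7IP or TPRG1 lay 1 protein-coding gene without a named probe set, so the nearest gene there was not read. Between the member and GSG1 or CLDN16 lay 0. limma called 0 of the 12 with MPA, 0 with PROG, 0 with DHT and 1 with DEX, beside 5.93%, 2.82%, 0.889% and 1.11% of all named probe sets. At an unadjusted p under 0.05 there were 3 with MPA, 2 with PROG, 0 with DHT and 6 with DEX. Of the 14841 named probe sets, 2589 passed that limit with MPA, 1727 with PROG, 1469 with DHT and 1546 with DEX. Next to SGPP2 lay PAX3, EPHA4, MOGAT1 and SCG2, of which EPHA4 (4.71 with MPA, 4.85 with PROG, 4.89 with vehicle) had means above the array medians. Next to EMP1 lay GSG1, FAM234B, ATF7IP and PLBD1. FAM234B had levels of 9.17, 9.12 and 9.10 with DEX, against 8.79, 8.88 and 8.79 with vehicle, a rise of 0.31 ± 0.044 (adjusted p = 0.00224) that was not called when only the DEX and vehicle arrays entered the fit (adjusted p = 0.0690). With MPA FAM234B differed by 0.13 ± 0.044 (adjusted p = 0.123). Next to P3H2 lay TPRG1, LPP, CLDN16 and CLDN1. CLDN1, a tight junction claudin that is bright in these cells, had means of 11.43 with MPA and 11.52 with PROG, against 11.45 with vehicle, and CLDN16 lay under the array medians.

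Of the receptors, PGR, which encodes the progesterone receptor, had levels of 7.63, 7.69 and 7.66 with MPA and 7.78, 7.69 and 7.68 with PROG, against 8.34, 8.33 and 8.22 with vehicle. PGR was lower on every progestin array than on every vehicle array, and the share of probe sets that separate so was not counted. Its differences were -0.64 ± 0.056 with MPA (adjusted p = 3.35e-06) and -0.58 ± 0.056 with PROG (adjusted p = 1.71e-05). Of all named probe sets, 1.82% were called lower with MPA and 0.391% with PROG. ESR1, for estrogen receptor alpha, had means of 7.28 with MPA and 7.53 with PROG, against 8.05 with vehicle. Its differences were -0.77 ± 0.065 with MPA (adjusted p = 2.10e-06) and -0.52 ± 0.065 with PROG (adjusted p = 1.80e-04). Both calls held without each array in turn (adjusted p up to 2.73e-05 with MPA and 0.0014 with PROG). With DHT, ESR1 differed by -0.30 ± 0.065 (adjusted p = 0.0486, and 0.0517 to 0.175 with 1 of the 6 arrays left out, which ends the call each time) and PGR by -0.24 ± 0.056 (adjusted p = 0.0634), and with DEX both differed by -0.20 without a call (adjusted p = 0.248 for ESR1 and 0.164 for PGR). The part of either change in the levels of the 3 genes was not tested.

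The genes most like each member were read from Pearson's r over the 15 arrays, among 212 probe sets that rise above the array median in at least 1 group and whose group means span at least 1.5-fold. Differences between groups enter these r values, which come from the same arrays and carry no test. SGPP2 was most like GREB1L, a paralog of the estrogen-response gene GREB1 (r = 0.986, Spearman's rho 0.896), followed by PXYLP1, C9orf152, LRIG1 and UNC5B (r = 0.976 to 0.979). GREB1L had levels of 7.65, 7.80 and 7.82 with MPA, 7.31, 7.44 and 7.11 with PROG, 6.34, 6.33 and 6.07 with DHT and 6.21, 6.08 and 6.12 with DEX, against 6.09, 6.00 and 6.10 with vehicle. All 5 had a higher mean with MPA than with PROG, as SGPP2 did, by 0.14 in C9orf152 to 0.83 in UNC5B. The choice by likeness favours this order too, so no test is given. LRIG1, a restraint on growth factor receptors, averaged 9.67 with MPA and 9.28 with PROG, against 8.65 with vehicle, and UNC5B, a netrin receptor, averaged 8.16 and 7.33, against 6.45.

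EMP1 was most like FOSL2, a subunit of the AP-1 transcription factor (r = 0.978, rho 0.929), followed by PCDH7, a protocadherin, SYBU, a linker of kinesin cargo, S100P, a calcium-binding protein, and NAV2 (r = 0.965 to 0.978). FOSL2 had levels of 8.20, 8.10 and 8.24 with MPA, 8.10, 8.11 and 8.07 with PROG, 7.61, 7.68 and 7.63 with DHT and 7.77, 7.86 and 7.87 with DEX, against 7.40, 7.44 and 7.47 with vehicle. In all 5 the DEX mean lay above the DHT mean, as it did in EMP1, with DHT minus DEX from -0.33 in NAV2 to -0.18 in S100P. The choice by likeness favours this order, so it is given with no test. The DEX differences from vehicle were 0.41 for PCDH7, 0.55 for SYBU, 0.30 for S100P and 0.32 for NAV2, each smaller than the 0.96 of EMP1.

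P3H2 was most like MXD1, a partner of MAX that opposes MYC (r = 0.966, rho 0.841), followed by C9orf152, ZBTB7C, RTN4RL1 and CRYBG2 (r = 0.961 to 0.965). MXD1 had levels of 9.28, 9.32 and 9.38 with MPA, 9.24, 9.23 and 9.21 with PROG, 8.58, 8.59 and 8.64 with DHT and 8.69, 8.66 and 8.60 with DEX, against 8.56, 8.46 and 8.48 with vehicle. ZBTB7C had the widest span of these 5, with differences from vehicle of 2.28 with MPA and 2.06 with PROG. C9orf152 was the 1 gene named for more than 1 member. By Spearman's rho, 1 of the 5 genes of SGPP2, 2 of EMP1 and 1 of P3H2 were again among the first 5. With the replicate number effect removed from the values, 3 of the 5 were again among the first 5 for each member. The r of ZBTB7C with P3H2 was then 0.981, against 0.965 before. The names therefore depend on the measure.

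Among themselves, SGPP2 and P3H2 correlated with r = 0.934 (rho 0.848), EMP1 and P3H2 with r = 0.906 (rho 0.785) and SGPP2 and EMP1 with r = 0.854 (rho 0.761) over the 15 arrays. These values are a description, since all 3 were chosen for 1 pattern, and differences between groups enter them. With the group means taken out, r was 0.37 for SGPP2 and P3H2, -0.31 for EMP1 and P3H2 and -0.57 for SGPP2 and EMP1. The 3 genes therefore did not all vary together from array to array within groups, and these r values carry no test either. No member was among the 5 genes most like another. P3H2 stood at rank 38 of 211 for SGPP2 and at rank 50 for EMP1, and EMP1 at rank 105 for SGPP2.

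**Figure D5:**
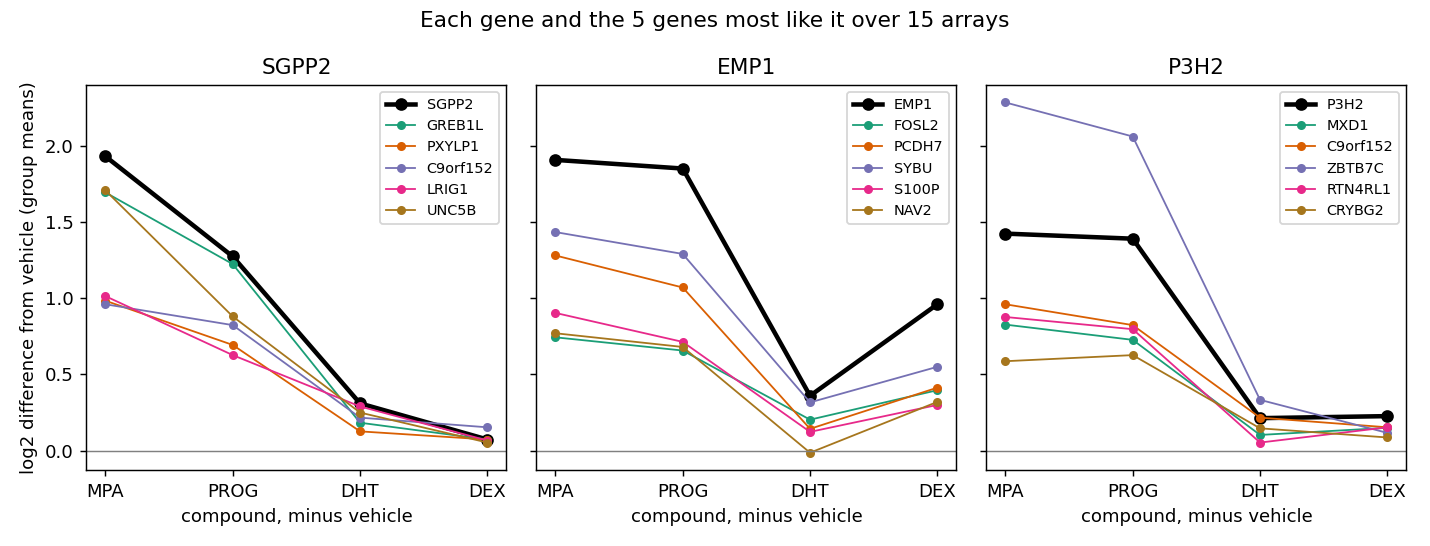
Log2 difference of the group mean from vehicle (y axis) with MPA, PROG, DHT and DEX for SGPP2, EMP1 and P3H2 (black) and the 5 genes most like each by Pearson's r over 15 arrays (coloured). Lines only join the points of a gene. The genes were chosen for likeness, so that a set shares its shape is no finding. Plotted means of the SGPP2 set are lower with PROG than with MPA, and those of the EMP1 set are higher with DEX than with DHT.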

How the data were processed

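The authors deposited log2 expression levels with 2 decimals, 1 column per array, in 15 columns. Per the labels' protocols, total RNA (300 ng) was amplified, converted to cDNA, fragmented and labelled with an Affymetrix kit. Per the submitters' processing notes, Partek and RMA were used. Versions, settings, filters and the genome build were not given in the sources used here. Robust multi-array averaging usually sets arrays to a like distribution, which removes a change common to most genes, and it can compress changes of dim probe sets such as that of P3H2. No depth applies to arrays, and their number limits the precision. The platform annotation names 14841 of 34878 probe sets and leaves 20037 unnamed here, and symbols were checked through RefSeq gene IDs of GRCh38.p14, which changed 0 of them.

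Groups were taken from sample titles. Values were used as deposited. limma 3.58.1 in R 4.3.3 fitted 5 group means over 15 arrays (10 residual and 3.81 prior degrees of freedom), tested on simulated data, with Benjamini-Hochberg adjustment over the 14841 probe sets within each of 10 contrasts, 2-sided, and called a probe set under 0.05. Genes with several probe sets are represented by the brightest. The genes named are the 3 members, called genes and close paralogs of 3 lists, neighbours, the 5 genes most like each member, and the 2 receptor genes. Members, lists and named genes were chosen with earlier results of these data known. ZBTB7C as the gene ranked 1st, the marker genes, SPHK1, SGPL1, CRTAP and COLGALT1 were named after their values were seen. Promoter sequences come from RefSeq. Alternatives were a replicate block, fits on 2 groups, other priors, quantile normalization, a filter on dim probe sets, all probe sets and leaving out arrays.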

Additional observations from a re-analysis of the deposited data

How the results depend on the processing

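Every difference of a progestin from vehicle, DHT or DEX in the 3 genes kept its direction and stayed within 1 SD between arrays under all alternatives. Same-numbered arrays of different groups did not deviate together from their group means across genes (r -0.054 to 0.067). An r over all genes cannot exclude a shared culture or day that moves some of them, and no label settles it. The replicate block changed no call of SGPP2, EMP1 or P3H2 (SGPP2 MPA minus PROG 0.66, adjusted p = 0.0396), and it ended the CLDN7 call with PROG (adjusted p = 0.0580) and brought 2 sphingolipid genes higher with MPA. With only the 2 groups compared in the fit, which has fewer residual degrees of freedom, SGPP2 MPA minus PROG (0.66, adjusted p = 0.0923) and EMP1 DHT minus DEX (-0.60, adjusted p = 0.0591) were not called. Calls over all genes then numbered 7 for MPA minus PROG (43 with all arrays), 54 for DHT minus vehicle (132), 44 for DEX minus vehicle (164), 39 for DHT minus DEX (97), 526 for MPA minus vehicle (880), 255 for PROG minus vehicle (419), 292 for MPA minus DHT (521), 285 for MPA minus DEX (602), 146 for PROG minus DHT (254) and 122 for PROG minus DEX (211), and 1 tetraspan gene was higher with DEX. CLDN7 with MPA (adjusted p = 0.0959) and with PROG (adjusted p = 0.169), EMP2 with DEX (adjusted p = 0.115) and FAM234B with DEX (adjusted p = 0.0690) lost their calls there. Where the prior spread followed the mean level, EMP1 DHT minus vehicle (0.36, adjusted p = 0.0492) was called, calls numbered 71 for MPA minus PROG, 220 for DHT minus vehicle and 166 for DHT minus DEX, and 2 tetraspan genes were higher with DHT. The filter on dim probe sets gave 1 sphingolipid gene lower with MPA, the test over all probe sets 1 tetraspan gene higher with DEX, and CLDN7 with PROG was not called there (adjusted p = 0.0774) or after quantile normalization (adjusted p = 0.0764).

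With each array left out in turn, SGPP2 MPA minus PROG ranged over 0.60 to 0.73 (adjusted p 0.0257 to 0.113), EMP1 DEX minus vehicle over 0.91 to 1.04 and EMP1 DHT minus DEX over -0.69 to -0.53 (adjusted p 0.00204 to 0.0279). Small uncalled differences crossed 0: SGPP2 DEX minus vehicle (-0.0033 to 0.19), P3H2 MPA minus PROG (-0.048 to 0.18) and P3H2 DHT minus DEX (-0.11 to 0.12). Without DEX 2 the SGPP2 value was -0.0033, and P3H2 MPA minus PROG was -0.03 without MPA 1, -0.048 without MPA 3 and -0.02 without PROG 1. P3H2 DHT minus DEX was 0.12 without DHT 2 and 0.07 without DEX 1. Calls over all genes ranged over 17 to 38 for MPA minus PROG, 66 to 132 for DHT minus vehicle, 78 to 123 for DEX minus vehicle, 62 to 135 for DHT minus DEX, 257 to 336 for PROG minus vehicle and 168 to 256 for PROG minus DHT. Sphingolipid genes higher with MPA numbered 1 to 2 and lower with MPA or PROG 0 to 1, and tetraspan genes higher with DEX numbered 1 to 1. Collagen modification genes lower with MPA than with DEX, a result and alternatives added after seeing the data, numbered 2, against 1 over all probe sets, 0 with only the 2 groups compared and 0 to 1 with an array left out. P3H2 lies under the array medians with DHT, DEX and vehicle, so signal over background limits what its differences there can show.
The ESR1 call with DHT, tried after seeing the data, was also lost with the replicate block (adjusted p = 0.0581), a robust prior (0.0507), all probe sets (0.0786) and the 2 groups alone (0.169).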
